A study of Mus musculus with 6 samples.

Results

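The genes described here encode the zinc-finger repressors ZEB1 and ZEB2, the insulator protein CTCF with its paralog CTCFL (also called BORIS), and 4 subunits of cohesin (RAD21, SMC1A, SMC3 and STAG2). Members were the non-control probes whose transcript accession names Zeb1, Zeb2, Ctcf, Ctcfl, Rad21, Smc1a, Smc3 or Stag2. These 8 genes, of 23462 genes named on the array, were represented by 13 probes. Of the 8 genes, 7 had a probe well above background on every array of at least 1 group and were tested, as were 12302 genes in all.

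Microglia were purified with a P2RY12 antibody kit from brains of 10-week-old mice on a C57BL/6 background, labelled male, and 1-colour arrays were run for 3 PGC-1αf/f and 3 mPGC-1α samples. PGC-1αf/f mice carry a loxP-controlled allele of PGC-1α linked to eGFP, which stays off without Cre. mPGC-1α mice carry the same allele together with a tamoxifen-inducible Cre recombinase in the Cx3cr1 locus, so the allele is switched on in cells that use that locus. The controls were Cre-negative littermates, which therefore also differ from mPGC-1α mice at Cx3cr1. Tamoxifen was given on consecutive days and followed by an interval before experiments, which the study chose so that overexpression would be limited to microglia and spare macrophages. The sources used here state neither whether the controls of the arrays received it nor how many mice contributed to each array, so p-values measure the spread between these samples.

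CTCF binds DNA in a fixed orientation and stops cohesin, a ring that extrudes chromatin loops, at the borders of loops and domains. RAD21, SMC1A and SMC3 form the ring and STAG2 is an accessory subunit that holds it on chromatin, while CTCFL shares the DNA-binding domain of CTCF and is normally restricted to the germ line. ZEB1 and ZEB2 bind E-boxes, recruit CTBP and histone deacetylase corepressors, silence epithelial genes and respond to TGF-β and SMAD signalling, and ZEB2 is also a regulator of microglial and macrophage identity. The study examined DNA motifs of CTCF, CTCFL and ZEB1 in connection with PGC-1α, and the arrays address whether the genes for these factors and their partners changed at rest.

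Values are log2 signal after subtraction of the 75th percentile of each array, so a difference of 1 is a doubling, and n = 3 arrays a group throughout. Between 27025 and 30272 of 59305 spots per array were well above background, none was saturated, and all 8 microglial marker genes with a usable probe were well above background on all 6 arrays, whereas 6 of 7 germ cell markers were above background on none. Ppargc1a, the overexpressed gene, gave 0.19, -0.44 and -1.21 on PGC-1αf/f arrays 1, 2 and 3 and 0.57, 0.28 and 0.08 on mPGC-1α arrays 1, 2 and 3 (difference 0.80 ± 0.35 SE, limma adjusted p = 0.306), so the groups overlapped. The difference was 0.44 without PGC-1αf/f array 3, and a second Ppargc1a probe gave 0.59 ± 0.38 (0.26 without that array and 0.31 without mPGC-1α array 1). Of the arrays, 2 stood apart. PGC-1αf/f array 3 correlated with the others at a mean of 0.928 (0.962 to 0.972 for the rest), and its summed level of neutrophil and blood myeloid markers was 18.1 against 107.1 to 151 on the rest. mPGC-1α array 3, labelled male, had none of 7 Y-linked probes above background (5 or 6 on the rest). Xist, which is transcribed from the inactive X chromosome of females, was above background on that array (-1.63) and also on PGC-1αf/f array 2 (-2.78) and mPGC-1α array 2 (-2.40), and not on the other 3 arrays. Member differences that moved by more than 1.5 times or changed sign without either array are given without it.

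The promoter windows of Ctcf and Smc3 are printed with the longest run of bases that they share. Windows span 250 bases before to 50 bases after the annotated start (RefSeq, GRCm38.p6, 5′ to 3′ on the gene's strand). Signals of both genes had a Pearson r of 0.88 across the 6 arrays (below). No link between the shared run and the array signals was tested. Capitals mark the longest run of bases that both windows share. Windows of 4 of the 8 genes were searched (Zeb2, Ctcf, Smc1a and Smc3). No window of Zeb1, Ctcfl, Rad21 or Stag2 was searched.
Ctcf, chr8:105636288-105636587, plus strand: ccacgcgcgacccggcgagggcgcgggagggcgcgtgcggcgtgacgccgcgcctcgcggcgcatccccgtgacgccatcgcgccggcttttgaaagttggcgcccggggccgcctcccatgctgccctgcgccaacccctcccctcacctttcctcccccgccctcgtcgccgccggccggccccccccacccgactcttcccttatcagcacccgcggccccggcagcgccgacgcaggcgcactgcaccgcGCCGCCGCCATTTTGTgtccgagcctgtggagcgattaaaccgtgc
Smc3, chr19:53600146-53600445, plus strand: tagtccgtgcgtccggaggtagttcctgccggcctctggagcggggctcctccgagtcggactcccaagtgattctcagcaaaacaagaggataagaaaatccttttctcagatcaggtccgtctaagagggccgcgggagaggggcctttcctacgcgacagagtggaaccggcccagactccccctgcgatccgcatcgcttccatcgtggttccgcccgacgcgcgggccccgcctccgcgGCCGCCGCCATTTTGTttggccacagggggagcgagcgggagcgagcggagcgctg
The shared run of 16 bases, GCCGCCGCCATTTTGT, begins at window position 255 in Ctcf, just inside the annotated start, and at 245 in Smc3, where it spans the start (positions are counted from 1 at the 5′ end). It was present in 3 of 32851 windows on either strand, counting the Ctcf and Smc3 windows themselves. Because the run was taken from those windows, this count is not a background share. It contains GCCATNTTG, the core bound by the zinc-finger protein YY1, a search added after the windows had been read, and 2.51% of all windows held that core on either strand. The Ctcf window had a GC content of 75.3% and 47 CpG dinucleotides, the Smc3 window 65% and 32, and the Smc1a window (chrX:152016178-152016477, plus strand) 58.3% and 23, against medians of 52.7% and 7 over all windows.

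Zeb2 had 4 annotated start windows, and the innermost is shown because it alone held any of the 4 motifs chosen for the search. Capitals mark TGANTCA, the element bound by AP-1 factors.
Zeb2, chr2:45110228-45110527, minus strand: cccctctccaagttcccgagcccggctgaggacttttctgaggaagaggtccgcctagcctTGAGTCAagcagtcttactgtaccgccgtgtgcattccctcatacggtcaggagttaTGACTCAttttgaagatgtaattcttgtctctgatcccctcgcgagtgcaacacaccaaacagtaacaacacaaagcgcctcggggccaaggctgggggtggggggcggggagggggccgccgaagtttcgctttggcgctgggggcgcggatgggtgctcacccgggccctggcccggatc
The motif occurred at window positions 62 and 119, and 7.81% of all windows held it on either strand. The ZEB E-box CACCTG (20.2% of all windows), the ERR element AAGGTCA (4.72%) and the CTCF core consensus (0.557%) were found in none of the 7 windows of the 4 genes, which says only that these letters are not in these windows.

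No member changed past the threshold in mPGC-1α microglia. Of the 7 tested genes, 0 passed an adjusted p of 0.05 in limma, beside 8 of 12302 genes (0.065%), and 0 had an unadjusted p under 0.05, beside 13.9% of tested genes. The fitted difference was below 0 for the representative probe of all 7, from -0.53 (Zeb2) to -0.05 (Smc1a), with a median of -0.22 against 0.03 over all tested genes, of which 54.1% were higher in mPGC-1α. The members' median was -0.10 without PGC-1αf/f array 3, -0.14 without mPGC-1α array 3 and -0.35 without mPGC-1α array 1, and 5 of the 7 lay below 0 without PGC-1αf/f array 1. The 2 groups did not overlap for 1 of the 7 genes, Ctcf, which was lower in mPGC-1α, beside 22.9% of tested genes that did not overlap in either direction and 10.8% that were lower. In these sorted bulk samples fewer cells of a type and less RNA per cell cannot be told apart.

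**Figure D1:**
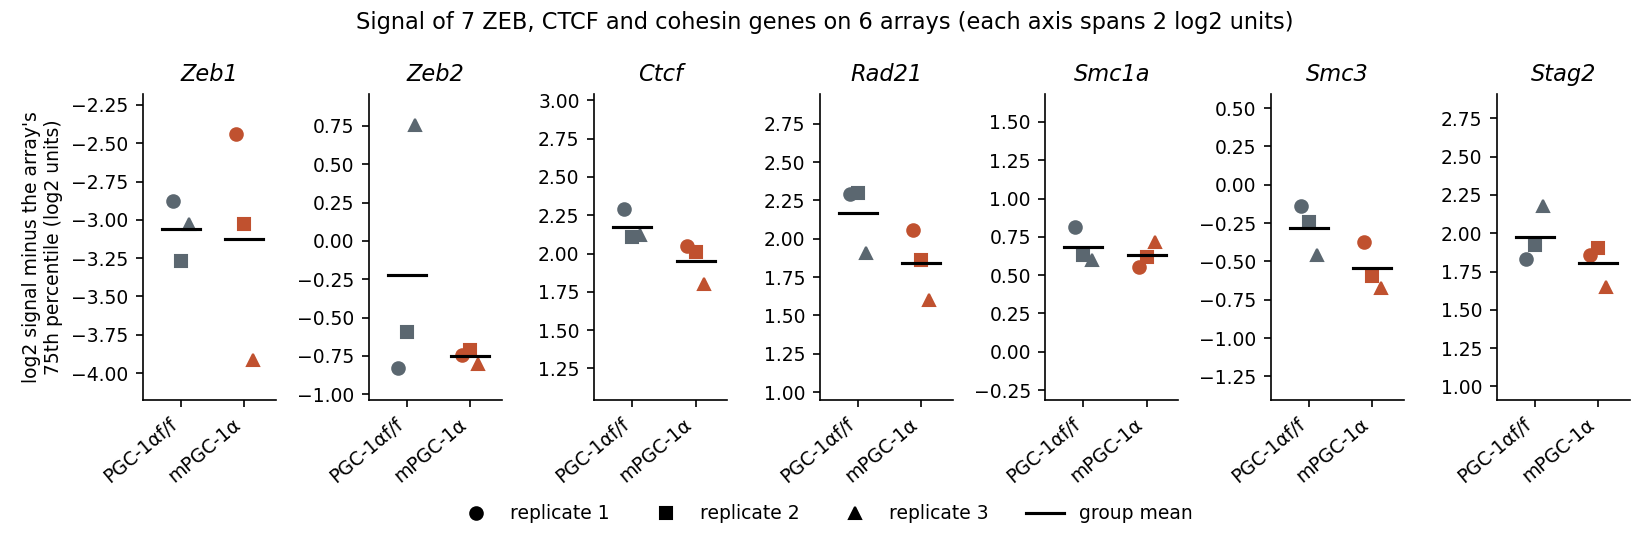
Log2 signal after scaling to the 75th percentile of each array (y axis, log2 units, spanning the same range in every panel) for the representative probe of each of 7 genes in the PGC-1αf/f and mPGC-1α groups (x axis). Each point is 1 array, its shape gives the replicate number and the line is the group mean; the 3 mPGC-1α values lie below the 3 PGC-1αf/f values for Ctcf, and 1 PGC-1αf/f array stands far above the rest for Zeb2.

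Zeb1 signal was well above background on 3 PGC-1αf/f and 2 mPGC-1α arrays, so it was tested through the control group. Its values were -2.88, -3.27 and -3.03 in the PGC-1αf/f group and -2.44, -3.03 and -3.91 in the mPGC-1α group. The mPGC-1α arrays held both the highest and the lowest value, and the groups overlapped. The difference was -0.07 ± 0.36 (SE), with a 95% interval of -0.91 to 0.77 and an adjusted p of 0.936, and it was 0.32 without mPGC-1α array 3, -0.41 without mPGC-1α array 1, 0.021 without PGC-1αf/f array 1 and -0.17 without PGC-1αf/f array 2. The interval corresponds to a fold of 0.533 to 1.71, and all values in that range are compatible with these arrays at that level. A second Zeb1 probe was above background on no array.

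Zeb2 was measured by 3 probes, and PGC-1αf/f array 3 gave the highest value of every probe. The representative probe gave -0.83, -0.59 and 0.75 in the PGC-1αf/f group and -0.74, -0.71 and -0.80 in the mPGC-1α group. All arrays but PGC-1αf/f array 3 lay between -0.83 and -0.59. The difference was -0.53 ± 0.39 (95% interval -1.46 to 0.40, adjusted p = 0.507) with that array and -0.04 (adjusted p = 0.946) without it, and it was -0.83 (adjusted p = 0.273) without PGC-1αf/f array 1. With array weights it was -0.24. The markers of blood myeloid cells were lowest on PGC-1αf/f array 3 (18.1, above), and their part in the Zeb2 value was not tested.

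The other Zeb2 probes were read on fewer arrays, because spots marked as outliers by the scanner software were left out. Probe A_51_P121206 gave 2.98, 2.39 and 3.11 in the PGC-1αf/f group and 2.69 and 2.81 on mPGC-1α arrays 1 and 3, a difference of -0.08 ± 0.25 (95% interval -0.69 to 0.53). Probe A_52_P596008 gave 1.20, 1.43 and 2.49 against 1.74 on mPGC-1α array 3 alone, a difference of 0.03 ± 0.54 (95% interval -1.36 to 1.42). None of the probes passed the threshold, and the sign of both rested on single arrays. The first was 0.06 without PGC-1αf/f array 3 and -0.30 without PGC-1αf/f array 2 (-0.14 without mPGC-1α array 3), and the second was 0.42 without PGC-1αf/f array 3 and -0.23 without PGC-1αf/f array 1. With the outlier spots kept, the missing values were 2.84 for the first probe and 1.40 and 2.05 for the second, and the differences were -0.05 and 0.02. The representative probe was chosen because it alone was read on all 6 arrays, and with the outlier spots kept the first of these probes, of higher mean signal, took its place, so that Zeb2 was then represented by the -0.05.

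Ctcf gave 2.29, 2.11 and 2.12 in the PGC-1αf/f group and 2.05, 2.01 and 1.80 in the mPGC-1α group. Every mPGC-1α value was below every PGC-1αf/f value, the nearest values being 2.11 and 2.05. The difference was -0.22 ± 0.14 (95% interval -0.54 to 0.11, fold 0.860 with an interval of 0.687 to 1.08, adjusted p = 0.440), within what the spread between arrays allows. It was -0.24 without PGC-1αf/f array 3 and -0.14 without mPGC-1α array 3. Under other processing it was -0.39 (normexp and quantile normalization), -0.35 (median of the array) and -0.15 (array weights). Ctcfl, in contrast, was above background on none of the 6 arrays, with values from -6.40 to -5.40, so no fold is given for it.

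Rad21, the kleisin that closes the cohesin ring and is cut by separase when chromatids part, gave 2.29, 2.30 and 1.91 in the PGC-1αf/f group and 2.06, 1.86 and 1.60 in the mPGC-1α group. PGC-1αf/f array 3 fell among the mPGC-1α values, so the groups overlapped. The difference of -0.32 ± 0.18 (95% interval -0.75 to 0.11, fold 0.798, adjusted p = 0.392) had the lowest adjusted p of the 7 genes. It was -0.45 without PGC-1αf/f array 3, at an unadjusted p of 0.0384 and an adjusted p of 0.360, and -0.20 without mPGC-1α array 3. With normexp and quantile normalization it was -0.57.

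Smc3, which carries the acetylated lysines that lock cohesin on chromatin, gave -0.14, -0.24 and -0.46 in the PGC-1αf/f group and -0.37, -0.59 and -0.67 in the mPGC-1α group. The highest mPGC-1α value lay above the lowest PGC-1αf/f value. The difference was -0.27 ± 0.15 (95% interval -0.63 to 0.09, adjusted p = 0.400). A second Smc3 probe gave -0.72, -0.68 and -0.17 against -0.60 and -1.06 on mPGC-1α arrays 2 and 3, a difference of -0.30 ± 0.25, which was -0.08 with the outlier spot of mPGC-1α array 1 kept, -0.13 without PGC-1αf/f array 3, -0.07 without mPGC-1α array 3 and -0.53 without mPGC-1α array 2.

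Smc1a and Stag2, both X-linked, had the smallest differences among the cohesin members. Smc1a, the partner of SMC3 in the ring, gave 0.82, 0.63 and 0.60 in the PGC-1αf/f group and 0.55, 0.62 and 0.72 in the mPGC-1α group, with fully mixed groups. The difference was -0.05 ± 0.13 (95% interval -0.36 to 0.26, adjusted p = 0.860) on this probe, and it was 0.015 without PGC-1αf/f array 1, -0.014 without mPGC-1α array 1 and -0.10 without array 3 of either group. The other Smc1a probe had a difference of -0.09 ± 0.26, which was 0.16 without mPGC-1α array 3, -0.18 without PGC-1αf/f array 3, -0.33 without mPGC-1α array 1 and 0.03 without PGC-1αf/f array 1. Stag2 gave 1.83, 1.92 and 2.17 against 1.86, 1.91 and 1.65, a difference of -0.17 ± 0.15 (95% interval -0.53 to 0.19, adjusted p = 0.576). PGC-1αf/f array 3 was the highest for Stag2 and mPGC-1α array 3 the lowest, and the difference was -0.07 without the first and -0.09 without the second.

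**Figure D2:**
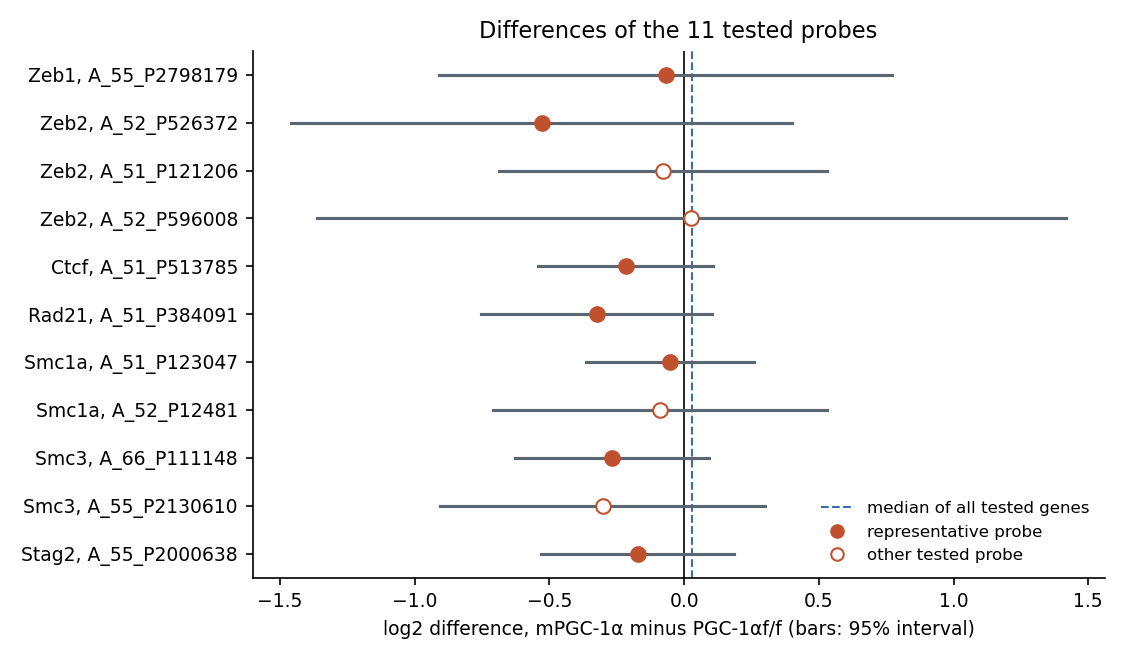
Log2 difference, mPGC-1α minus PGC-1αf/f (x axis), for the 11 tested probes (y axis), with bars for the 95% interval, filled points for representative probes and the median of all tested genes as a dashed line. Every interval includes 0, and the Zeb1 and Zeb2 intervals are wider than those of Ctcf and of the representative cohesin probes.

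**Figure D3:**
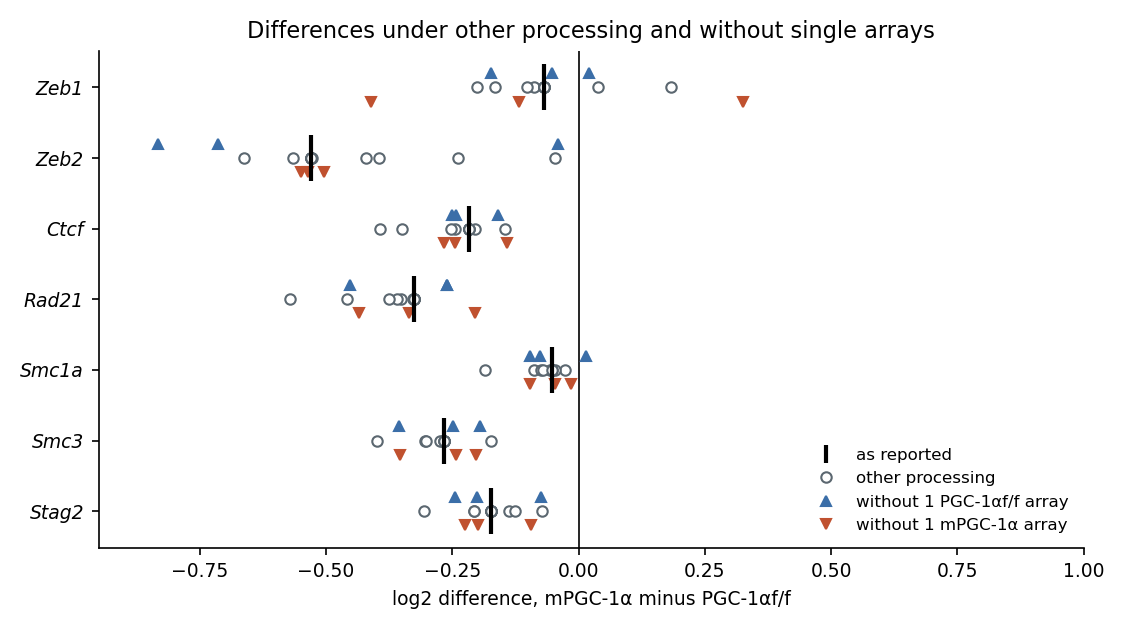
Log2 difference, mPGC-1α minus PGC-1αf/f (x axis), of each of 7 genes (y axis) as reported (bar), under other processing (circles) and without single arrays (triangles). Ctcf, Rad21, Smc3 and Stag2 stayed below 0 in each of 18 alternatives, Zeb1 lay on both sides of 0, and Zeb2 moved close to 0 without PGC-1αf/f array 3.

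Across the 6 arrays, signals of Rad21 and Smc3 followed each other most closely among the members (Pearson r = 0.97), followed by Ctcf with Smc3 (0.88) and Ctcf with Rad21 (0.86). Zeb2 and Stag2 also had an r of 0.86, with PGC-1αf/f array 3 highest for both. Smc1a, in contrast, had an r of 0.16 with Rad21, 0.31 with Smc3 and -0.48 with Stag2. Without PGC-1αf/f array 3 (5 arrays left) r was 0.97 for Rad21 with Smc3, 0.92 for Ctcf with either, and 0.66 for Zeb2 with Stag2. Without mPGC-1α array 3 r was 0.67 for Ctcf with Rad21 and for Smc1a 0.60 with Rad21 and 0.67 with Smc3. These values describe 6 arrays that share labelling and scaling, and the group difference itself is part of each r.

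**Figure D4:**
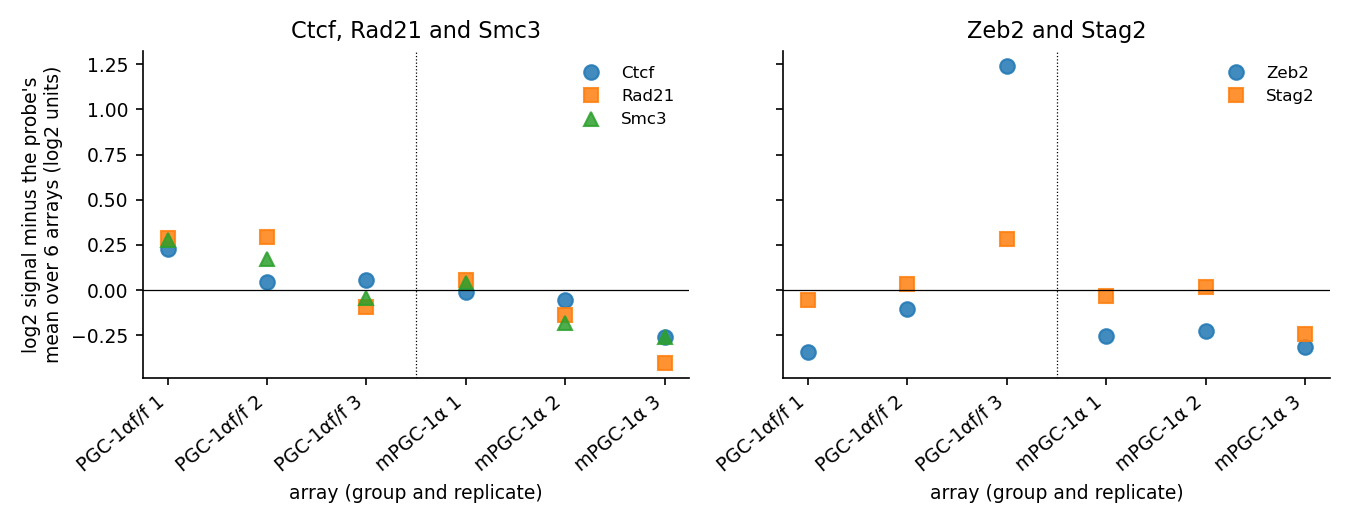
Log2 signal minus the probe's mean over 6 arrays (y axis, log2 units) on each array (x axis) for Ctcf, Rad21 and Smc3 (left) and for Zeb2 and Stag2 (right), with the dotted line between groups. The left genes are lowest on mPGC-1α array 3, and the right genes are highest on PGC-1αf/f array 3.

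Genes with a pattern most like each member were ranked by Pearson r over the 6 arrays among 11565 genes well above background on all of them. For Rad21 these were Irak1 (r = 0.99), a kinase of interleukin-1 and Toll-like receptor signalling, the Polycomb gene Bmi1 (0.98) and the interleukin-10 receptor gene Il10ra (0.97), and for Smc3 they were the serotonin receptor gene Htr2b (0.98), Gnl1 and Txndc16 (0.97 each). For Ctcf they were Tjp1, which encodes a tight junction scaffold, Zfp770 and Gramd4 (0.99 each), and for Stag2 Hsd3b7, Zscan26 and Ahdc1 (1.00, 0.99 and 0.99). The representative Zeb2 probe was nearest to Cd300a (1.00), an inhibitory receptor of myeloid cells, Nr2c1 and Zfc3h1 (0.99 each), which were likewise highest on PGC-1αf/f array 3. Zeb1 was nearest to Stk25 (0.99) and to Gzf1 and Atg4a (0.98 each), and Smc1a to Gm14308 (1.00) and to Zfp457 and Fmo1 (0.98 each). With 6 arrays such values are common, and 339 genes (2.93%) had an r over 0.9 with Zeb2 and 73 (0.631%) with Rad21.

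Related genes were grouped in 7 lists, and of their 70 genes with a representative probe 0 passed the threshold (0.065% of all tested genes did) and 13 (18.6%) had an unadjusted p under 0.05, beside 13.9% of all tested genes. That count of 13 was 6 in the deposited table (8.57%, beside 6.64% of all tested genes there). Without single arrays it ranged from 5 (7.14%, beside 9.53%) without mPGC-1α array 1 to 20 (28.6%, beside 19.1%) without PGC-1αf/f array 1, and was 8 (11.4%, beside 8.35%) without mPGC-1α array 2. Of 3 tested cohesin subunits outside the member set, the meiotic subunit Stag3 gave -2.08, -2.16 and -1.90 in the PGC-1αf/f group and -1.34, -1.54 and -1.75 in the mPGC-1α group. All mPGC-1α values were higher, with a difference of 0.51 ± 0.16 (adjusted p = 0.220). Rec8, another meiotic subunit, had a difference of 0.93 ± 0.61 that was 0.19 without PGC-1αf/f array 3 and 1.47 without PGC-1αf/f array 1. Stag1, the paralog of Stag2, had one of -0.11 ± 0.13. The Stag1 difference was -0.06 without PGC-1αf/f array 3, -0.07 without mPGC-1α array 1 and -0.17 without mPGC-1α array 3. Smc1b and Rad21l were dim in both groups, with at least 1 array per group not well above background.

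Among 11 genes that load, release, acetylate or cleave cohesin, 4 had a difference above 0 and 7 below, with a median of -0.12 that was -0.07 without mPGC-1α array 1, -0.08 without PGC-1αf/f array 1 or mPGC-1α array 3, and -0.19 without mPGC-1α array 2. The loader gene Nipbl gave 0.63, 0.58 and 0.83 in the PGC-1αf/f group and 0.46, 0.18 and 0.14 in the mPGC-1α group. All mPGC-1α values of Nipbl were lower, with a difference of -0.42 ± 0.15 (unadjusted p = 0.0279, adjusted p = 0.258), and the same held for the mitotic kinase gene Haspin at -0.44 ± 0.15 (adjusted p = 0.238). Cdca5, which encodes the cohesin protector sororin, was at the other end with a fitted 0.58 ± 0.43, which was 0.23 without PGC-1αf/f array 3, 0.36 without mPGC-1α array 2 and 1.06 (unadjusted p = 0.00782, adjusted p = 0.206) without PGC-1αf/f array 2. It was well above background on 2 PGC-1αf/f and 3 mPGC-1α arrays and so was tested only through the brighter group, and among genes above background on all 6 arrays Pttg1, which encodes the separase inhibitor securin, had the highest difference at 0.15 ± 0.15 (from 0.08 without PGC-1αf/f array 3 to 0.23 without PGC-1αf/f array 1 or mPGC-1α array 2). Proliferation markers summed to between 1.53 (PGC-1αf/f array 3) and 7.90 in the PGC-1αf/f group and between 5.48 and 9.24 in the mPGC-1α group, all 9 tested markers had a difference above 0, and their part in the Cdca5 value was not tested.

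Of 13 condensin and SMC5/6 genes, 8 had a difference above 0 and 5 below. The split was 5 above and 8 below with the median of the array as scaling, which moved the median of all tested probes to -0.14. The condensin kleisin gene Ncaph gave 0.50, 0.76 and 0.98 in the PGC-1αf/f group and -0.01, 0.15 and 0.31 in the mPGC-1α group, with no overlap and a difference of -0.59 ± 0.17 (adjusted p = 0.199). Ncapg2, of the condensin II complex, had the highest difference with 0.42 ± 0.20 (adjusted p = 0.333), which was 0.28 without mPGC-1α array 2.

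CTCF partners and other architectural proteins had a difference below 0 in 10 of 11 genes, with a median of -0.18. In 5 of the 11 the groups did not overlap, all lower in mPGC-1α, beside 10.8% of all tested genes, and 0 passed the threshold. Patz1, a zinc-finger gene, had the lowest difference at -0.41 ± 0.14 (adjusted p = 0.237), followed among the genes named by rule by Parp1, which encodes the poly(ADP-ribose) polymerase that modifies CTCF, at -0.39 ± 0.13 (adjusted p = 0.234). Parp1 gave -0.65, -0.43 and -0.61 in the PGC-1αf/f group and -0.92, -0.93 and -1.01 in the mPGC-1α group. Ddx5, an RNA helicase gene, was at the other end with 0.02 ± 0.22, and Yy1 had a difference of -0.01 ± 0.17, and the sign of both changed with single arrays left out. Without PGC-1αf/f array 3 the median of the list was -0.14, and 9 of the 10 genes stayed below 0 while Yy1 turned above and Ddx5 below.

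ZEB corepressors and SMAD partners comprised 17 genes, 6 with a difference above 0 and 11 below, and a median of -0.07. That median was -0.04 without PGC-1αf/f array 1 and -0.12 with quantile normalization (4 above and 13 below). With the median of the array as scaling it was -0.21 (1 above and 16 below). Smad5, a transducer of BMP signals, gave 1.34, 1.47 and 1.54 in the PGC-1αf/f group and 1.05, 1.23 and 0.95 in the mPGC-1α group, with no overlap and a difference of -0.37 ± 0.14 (unadjusted p = 0.0314, adjusted p = 0.266). Mta1, a subunit of the NuRD complex, had the lowest fitted difference at -0.62 ± 0.32, but it was well above background on 3 PGC-1αf/f and 2 mPGC-1α arrays and so was tested only through the brighter group, and the difference was -0.23 without mPGC-1α array 3. Among genes above background on all 6 arrays the corepressor gene Rcor1 had the lowest difference at -0.44 ± 0.23 (-0.67 without PGC-1αf/f array 1 and -0.29 without PGC-1αf/f array 3), and the deacetylase gene Hdac2 the highest at 0.17 ± 0.23 (from -0.014 without PGC-1αf/f array 2 to 0.33 without mPGC-1α array 3).

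Of 6 other E-box factors with a representative probe, 3 had a difference above 0 and 3 below. Tcf12, a bHLH activator, gave 0.19, 0.34 and 0.23 in the PGC-1αf/f group and -0.05, -0.31 and -0.34 in the mPGC-1α group, with no overlap and a difference of -0.49 ± 0.14 (adjusted p = 0.197). Id3, an inhibitor of such factors, gave 1.35, 0.93 and 0.16 against 1.96, 1.49 and 1.87, a difference of 0.96 ± 0.31 (adjusted p = 0.229) that was 0.63 without PGC-1αf/f array 3. Snai1, Snai2, Snai3, Twist1 and Twist2 were dim in both groups, with at least 1 array per group not well above background.

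Epithelial genes that ZEB factors are known to repress had a difference above 0 in all 9 tested genes (7 of 9 with the median of the array as scaling, 8 of 9 without mPGC-1α array 3 or any 1 PGC-1αf/f array), with a median of 0.71 that was 0.40 without PGC-1αf/f array 3. None passed the threshold, and 4 had an unadjusted p under 0.05 with groups that did not overlap, beside 13.9% of all tested genes at such a p and 22.9% without overlap. The count of 4 of 9 was 6 without PGC-1αf/f array 1, beside 19.1% of all tested genes at such a p. It was 1 without mPGC-1α array 1 or array 2 (beside 9.53% and 8.35%) and 2 without mPGC-1α array 3 (beside 9.62%). Grhl2, an epithelial transcription factor gene, gave -3.60, -2.97 and -6.39 in the PGC-1αf/f group, where 1 array was well above background, and -2.54, -2.27 and -0.56 in the mPGC-1α group, where all were. Grhl2 was therefore tested only through the group in which it was brighter, and its fitted difference of 2.53 ± 0.93 (adjusted p = 0.264; 1.49 without PGC-1αf/f array 3) sets measured values partly against values at background. Over the 8 genes well above background on all 6 arrays, 8 had a difference above 0, the median was 0.69 and 3 had an unadjusted p under 0.05 without overlap. The keratin gene Krt8 (1.08 ± 0.40), the polarity gene Crb3 (0.95 ± 0.31) and the cadherin gene Cdh3 (0.94 ± 0.36) were also without overlap, and their differences were 0.65, 0.66 and 0.51 without PGC-1αf/f array 3, while Ovol1 was at the other end with 0.04 ± 0.23 and turned below 0 without PGC-1αf/f array 1 (-0.15) or mPGC-1α array 3 (-0.11). Markers of other cell types also lay above 0, among them 11 of 11 tested neutrophil and blood myeloid markers (median 1.41, and 0.33 without PGC-1αf/f array 3), 6 of 6 endothelial and mural markers (0.81 and 0.06), 7 of 8 lymphocyte markers (0.81 and 0.33) and 7 of 7 border macrophage markers (0.38 and 0.32). Without mPGC-1α array 3 the border macrophage median was 0.09, with 5 of 7 above 0, and the endothelial and mural median was 0.46, while the latter was 1.35 without mPGC-1α array 1 and the lymphocyte median was 1.27 without PGC-1αf/f array 2. The summed signal of the endothelial and mural markers, relative to the 75th percentile, was 1.13 to 3.34 in the PGC-1αf/f group and 1.96 to 5.02 in the mPGC-1α group, and that of the lymphocyte markers 6.61 to 9.95 and 7.14 to 12.6. Oligodendrocyte markers were below 0 in 8 of 10 (median -0.55, and -0.35 without PGC-1αf/f array 3). The part of these markers in the epithelial values was not tested. The defining epithelial genes Cdh1, Epcam, Cldn4, Cldn7, Esrp1 and Esrp2 were dim in both groups, with at least 1 array per group not well above background.

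**Figure D5:**
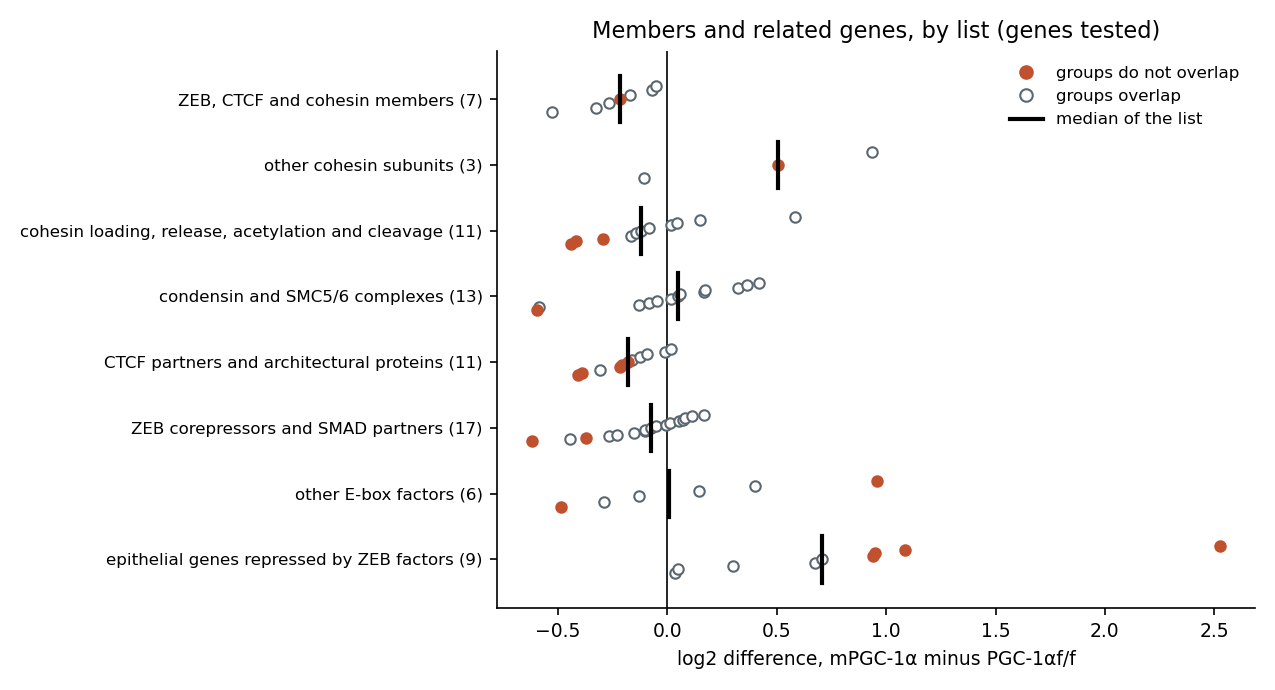
Log2 difference, mPGC-1α minus PGC-1αf/f (x axis), of each tested gene by list (y axis, number of genes in parentheses), with filled points where the groups did not overlap and a vertical bar at the median. The members lie below 0 with a median of -0.22, and the epithelial genes have a median of 0.71.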

How the data were processed

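RNA of purified microglia was amplified, labelled with Cy5 and hybridized by the authors to 1-colour Agilent mouse 8 × 60 k arrays. The deposited scanner files give the intensity of each spot from Feature Extraction 11.5.1.1 after background subtraction, with flags for spots well above background and for outliers, and the deposited table of the whole series holds the same intensity without normalization between arrays. GeneSpring is named for normalization and no test per gene is given for the arrays. All 6 arrays lay on 1 slide, PGC-1αf/f in row 1 and mPGC-1α in row 2, so slide row and group cannot be told apart.

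Control spots and outlier spots were left out, the 75th percentile of each array was subtracted from log2 intensity, and spots of a probe were averaged. Probes well above background (at least 0.5 of their spots) on every array of 1 group or both entered the test, 25333 of 56605, and 25257 gave a p-value. Probes were named through their accession in the RefSeq genes of GRCm38.p6, with 1 symbol for 33767 probes. The array header names the build mm9, so no probe coordinates are given. A gene is represented by its tested probe of highest mean signal with a value on all 6 arrays. Groups were compared with the two-sided moderated test of limma 3.58.1 (R 4.3.3, package data.table version 1.17.8), with Benjamini-Hochberg adjustment over all tested probes. Intervals are at 95%. The fit was tested on simulated data. An exact permutation test of 3 against 3 arrays cannot go below p = 0.1 and was not used. The number of arrays limits the precision. Promoter windows were searched on both strands with Python 3.11.15, and plots used pandas 2.3.3, numpy 2.4.6 and matplotlib 3.10.9.

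The members and gene lists were chosen with earlier results of these data known. The naming rule took every member probe and, per list, the genes with the highest and lowest difference and those with an unadjusted p under 0.05 and groups without overlap. Other genes are named because they were dim in both groups, or, for Yy1, Rcor1 and Pttg1, after their values were seen. Listed genes with a tested probe but no probe read on all 6 arrays (Smc6, Adnp, Ep300 and Id2) were left out of the list counts. Alternatives were other scalings, normexp with an offset of 50, the deposited table, other filters on dim probes, the replicate number as a block, a random slide column effect, eBayes with trend and robust, array weights, gene means, leaving out each array, and keeping outlier spots, which was chosen after seeing the data.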

Additional observations from a re-analysis of the deposited data

How the results depend on the processing

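The count of 0 members past the threshold held in all 18 alternatives. Few genes passed in any of them, from 0% of all tested genes with the replicate block to 1.92% with array weights. With so few passing, this count cannot tell the members from other genes. An unadjusted p under 0.05 was reached by 2 members with the median of the array as scaling, beside 13.9% of all tested genes there. It was reached by 2 with array weights (beside 20%) and by 0 to 1 without single arrays (1 without PGC-1αf/f array 3, beside 9.89%). The count of members without overlap was 3 with the median of the array, 0 with normexp and quantile normalization, 0 in the deposited table (beside 23.4%, 21.2% and 9.69% of all tested genes in the same settings), and 1 to 3 without single arrays (3 without PGC-1αf/f array 1, PGC-1αf/f array 3 or mPGC-1α array 1, beside 42.8%, 28.6% and 32.3%). Scaling by the median moved the median of all tested probes to -0.14 and that of the members to -0.35, which was 0.25 below the median of tested genes under either scaling. With that scaling the list that loads, releases, acetylates or cleaves cohesin had a median of -0.25 (2 above 0 and 9 below). The list of CTCF partners then had a median of -0.31 (0 above and 11 below). Without single arrays the members' median ranged from -0.35 (without mPGC-1α array 1) to -0.10 (without PGC-1αf/f array 3). Listed genes past the threshold were 1 in the deposited table (Grhl2, 2.49) and 1 with array weights (Stag3, 0.60, adjusted p = 0.0498), beside 1.58% and 1.92% of all tested genes there. The difference turned above 0 for Zeb1 with a random slide column effect (0.039), with array weights (0.18), without PGC-1αf/f array 1 (0.021) and without mPGC-1α array 3 (0.32; range -0.41 to 0.32 without single arrays), and for Smc1a without PGC-1αf/f array 1 (0.015; range -0.10 to 0.015). With the median of the array, Smc3 was -0.40, Stag2 -0.31, Smc1a -0.18 and Zeb1 -0.20. With normexp and quantile normalization Smc3 was -0.17 and Smc1a -0.03, and with array weights Stag2 was -0.07. The cause of these shifts was not tested. With the replicate block, 0 members passed and the median was -0.22. Same-numbered arrays deviated together with correlations of 0.139, 0.127 and 0.0187. Each lay above the highest correlation with another number (-0.050, 0.075 and 0.015). The consensus correlation within slide columns was 0.35. The numbers were not taken as pairs in the main fit, and fits with the replicate block and with the slide column are among the alternatives. Signal near background limits Zeb1 and leaves Ctcfl without a measured level.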
